A study of Oryza sativa with 6 samples.

Results

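The intronic transcripts described here are RNAs that the assembly of rice leaf reads placed inside an intron of an annotated gene without matching any of its exons. They were chosen by the class code i that the deposited transcript table gives each entry for its position relative to the annotation. An entry exists only where reads of these same libraries were assembled, so its level in at least 1 library decided whether it was listed. Counts of members detected in few libraries or in 1 group alone depend in part on this. The table held 57680 transcripts with a value above 0 in at least 1 library, and 1277 of them had class code i. Leaf RNA of CA21, a glyphosate-tolerant, non-transgenic rice germplasm, was sequenced in 6 paired-end libraries after removal of ribosomal RNA. The GLY libraries (GLY1, GLY2 and GLY3) came from plants sprayed with glyphosate at 2 mg per ml as seedlings at the third-leaf stage, and the CK libraries (CK1, CK2 and CK3) from plants of the same line without spray. CA21 came from mutagenesis of Zhejing30 followed by crosses to the glyphosate-sensitive P1003, and its leaves were taken once sprayed P1003 plants had died. Nothing in the labels says whether the 3 libraries of a group came from separate plants, so p values measure the spread between libraries, which may be partly technical. In whole leaves, fewer cells of a type and less RNA per cell cannot be told apart.

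Glyphosate blocks EPSPS, the enzyme of the shikimate pathway that leads to the aromatic amino acids. Introns of plant genes can hold transcription units of their own. COLDAIR, transcribed in the sense direction from an intron of FLC in *Arabidopsis thaliana*, is a known intronic lncRNA that acts in the silencing of its host during cold. Reads from an intron can also come from host RNA that was not yet spliced or that kept the intron, and with rRNA-depleted libraries such RNA is sequenced together with mature mRNA. For a transcript on the strand of its host, an RNA of its own and unspliced host RNA cannot be told apart in these data. The same holds for a single-exon transcript listed on the opposite strand, since the sources do not say whether the libraries kept the strand.

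Most of the intronic transcripts were short and had a single exon. Of the 1277, 1241 (97.2%) had 1 exon and 36 had 2 or more, and the median length was 296 bases, with quartiles of 233 and 453 bases and extremes of 200 and 9484 bases. An annotated transcript in the table enclosed 1264 of them, always of the gene whose name the intronic entry carried, and for the other 13 no annotated transcript of the named gene enclosed it there. The 1264 lay in 1081 host genes. One intronic transcript was found in each of 942 hosts, 2 in each of 112 hosts and 3 or more in 27 hosts. The hosts were longer than the 22532 annotated genes with at least 2 exons, with a median span of 4919 bases against 3528 bases and a median intron total of 3023 bases against 1672.5 bases. They also had a higher level, with a median of 2.61 FPKM (fragments per kilobase of transcript, scaled to mapped depth) over the 6 libraries against 1.02 FPKM. The midpoint of an intronic transcript lay at a median of 44.2% of the host span from the host's start. With the span cut into 3 equal parts from the host's start, the parts held 429, 606 and 229 of them in that order. All 12 chromosomes held members, between 28.1 (chromosome 10) and 42.3 (chromosome 8) for every 1000 annotated transcripts.

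The strand given in the table was that of the host for 718 intronic transcripts (56.8%) and the opposite one for 546. Whether the library kit kept the strand is not given in the sources used here, so the strand of single-exon entries is reported as the table has it. Same-strand members had a median length of 321 bases and a median level of 0.274 FPKM, and opposite-strand members 272 bases and 0.255 FPKM.

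Levels were low. The mean over the 6 libraries was under 0.5 FPKM for 1092 of the 1277 (85.5%), between 0.5 and 1 FPKM for 128, between 1 and 10 FPKM for 52 and at least 10 FPKM for 5. In the library where it was highest, a member reached a median of 1.28 FPKM, and 1218 of the 1277 (95.4%) reached 1 FPKM there. The host level, summed over the annotated transcripts of the gene, was usually above that of the intronic transcript. Unannotated isoforms of the gene were left out of this sum, so a member above its host need not exceed all RNA of the gene. The member had a median of 12.6% of its host's level, and 121 of 1264 members (9.57%) lay above their host, 82 of them on the same strand and 39 on the opposite strand.

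Detection in few libraries was the rule. A transcript was counted as detected in a library at an FPKM above 0. Of the 1277 intronic transcripts, 530 (41.5%) were detected in 1 library, 315 in 2, 175 in 3, 110 in 4, 74 in 5 and 73 (5.72%) in all 6. By comparison, 12.5% of the 2462 single-exon intergenic transcripts (class code u), 27.9% of the 2647 antisense transcripts (class code x) and 54.9% of the 35848 annotated transcripts were detected in all 6. The percentage of the class detected in a library was lower for intronic transcripts than for single-exon intergenic transcripts in each of the 6, with differences of -11.3 to -8.69 percentage points and a mean of -10.3 (exact sign-flip permutation test over the 6 libraries, p = 0.0312 on both sides, the lowest value possible with 6 libraries). Against antisense transcripts the differences were -26.5 to -18.7 percentage points, with a mean of -23.4 (the same exact test, p = 0.0312). All 6 libraries were scored on the same list from a shared assembly, so they are not independent replicates of the gaps. These p values therefore do not decide whether the classes differ beyond this list. The classes differ in length and number of exons, and the part of these in the gaps was not tested.

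**Figure D1:**
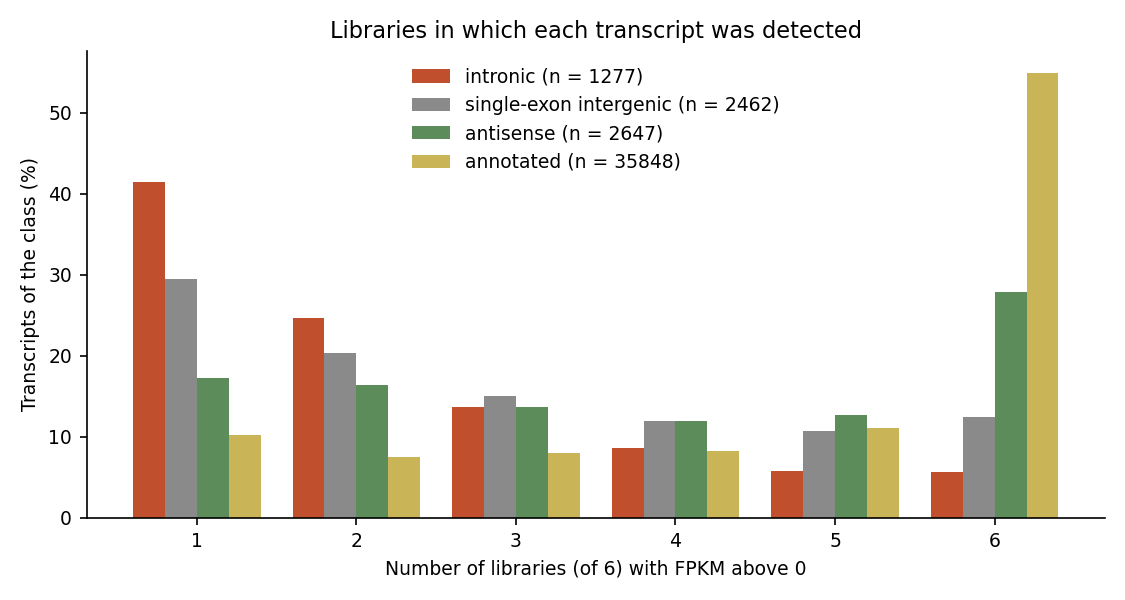
Percentage of the transcripts of each class (vertical axis) by the number of the 6 libraries with an FPKM above 0 (horizontal axis), for intronic, single-exon intergenic, antisense and annotated transcripts. Intronic transcripts are most frequent at 1 library (41.5%) and least frequent at 6 libraries (5.72%), while 54.9% of the annotated transcripts are at 6 libraries.

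The reads behind these values were few. Coverage multiplied by length gives the aligned bases of a transcript, and 33.1% of the 2934 values above 0 were whole multiples of 151 bases (within 1 base), against 4.67% for the next best step of those tried. Aligned bases are therefore given below in read equivalents of 151 bases. A member detected in 1 library rested on a median of 8 read equivalents there, with quartiles of 7 and 11.1. Summed over the 6 libraries, 876 members (68.6%) had fewer than 20 read equivalents. The 73 members detected in every library had a median of 22.8 read equivalents per library, a median length of 627 bases and a median level of 1.16 FPKM. An FPKM of 0 is given below as listed at 0, since at such depths it does not show that the RNA was absent.

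Fewer intronic transcripts were detected in GLY than in CK. The GLY libraries had 473, 477 and 460 of them, and the CK libraries 554, 488 and 481. Every GLY library lay below every CK library, although mapped depth was higher in GLY, with 3.84 to 4.40 Gb against 3.43 to 3.80 Gb in CK. The means were 470 ± 8.89 in GLY and 508 ± 40.3 in CK (SD, n = 3 each), a difference of -37.7 (exact two-sided permutation p = 0.1, the lowest value possible for 3 against 3). CK1 decided most of this difference, which was -14.5 without CK1. At 1 FPKM or more, the GLY libraries held 255, 263 and 229 members and the CK libraries 315, 237 and 238, and the groups overlapped. Same-strand members were detected 271, 276 and 266 times in GLY and 326, 281 and 282 times in CK, and the difference of -25.3 (exact permutation p = 0.1, n = 3 each) was -10.5 without CK1. Opposite-strand members were detected 199, 193 and 188 times in GLY and 222, 200 and 195 times in CK, with overlap between the groups. Annotated transcripts moved the other way, with 28734 to 28907 detected in GLY and 26702 to 27354 in CK. Single-exon intergenic transcripts moved as the intronic ones did, with 1154 to 1190 in GLY and 1191 to 1282 in CK. The gap between intronic and single-exon intergenic percentages averaged -10.6 in GLY and -9.97 in CK, and that to antisense transcripts -25.1 in GLY and -21.7 in CK. Neither difference between the groups reached the smallest possible p (exact permutation test, p = 0.5 and p = 0.2, n = 3 each).

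The summed level of the intronic transcripts gave different directions in different units. Their FPKM summed to 717, 641 and 666 in GLY and to 868, 795 and 785 in CK, means of 674 ± 38.6 in GLY and 816 ± 45.3 in CK (SD, n = 3 each) without overlap (exact permutation p = 0.1). This difference of -141 lay mostly in 5 transcripts, those of highest mean FPKM, which held 20.5 to 31.7% of the sum in GLY and 34.6 to 42.0% in CK. Without them the sums were 493, 509 and 454 in GLY and 568, 461 and 473 in CK, and the groups overlapped (exact permutation p = 0.8, n = 3 each). Same-strand members summed to 478, 380 and 444 FPKM in GLY and to 612, 561 and 562 FPKM in CK. Opposite-strand members summed to 235, 248 and 213 FPKM in GLY and to 251, 228 and 218 FPKM in CK, with equal means of 232 FPKM. Relative to the summed FPKM of the host genes, the intronic sum was 4.57 to 5.10% in GLY and 6.26 to 6.84% in CK.

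As aligned bases scaled to 1000000 aligned bases of the library, a quantity chosen after seeing the data that weights long transcripts more, the intronic transcripts took 568, 565 and 584 bases in GLY and 550.1, 507 and 504 bases in CK. Here GLY lay above CK. Opposite-strand members alone took a mean of 167 bases in GLY and 138 bases in CK, with overlap between the groups. The long same-strand transcripts MSTRG.13252.1 and MSTRG.479.1, described below, were left out after their higher values in GLY were seen. Leaving them out was bound to lower GLY more than CK. Without both, the values were 475, 472 and 482 in GLY and 529.7, 487 and 484 in CK, with GLY below CK (exact permutation p = 0.1, n = 3 each). Since the choice followed the values, this p does not test the direction.

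**Figure D2:**
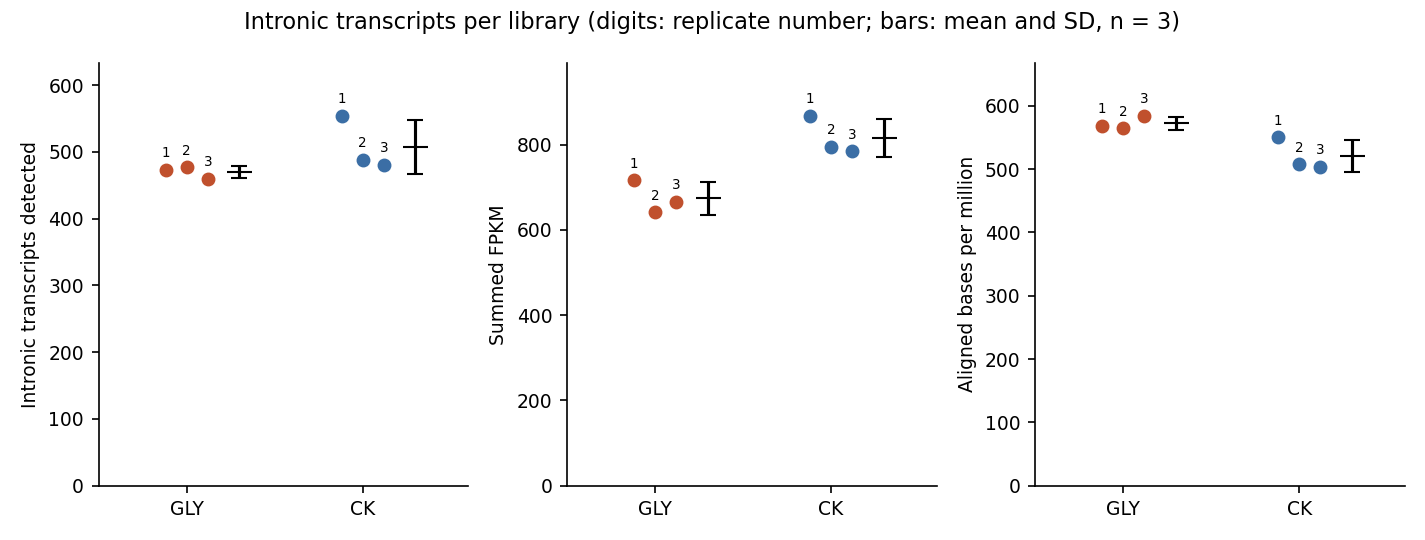
Number of intronic transcripts detected (left), their summed FPKM (middle) and their aligned bases per 1000000 aligned bases of the library (right) in each GLY and CK library, with mean and SD (n = 3). GLY lies below CK in the number detected (460 to 477 against 481 to 554) and in summed FPKM (641 to 717 against 785 to 868), and above CK in aligned bases (565 to 584 against 504 to 550.1).

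Transcript by transcript, few intronic transcripts were called as changed. Every transcript whose mean reached 0.5 FPKM was fitted with limma as log2(FPKM + 1), where changes of low transcripts come out too small. A call required a log2 fold change of 1 or more in size together with a Benjamini-Hochberg adjusted p under 0.05. Only 185 of the 1277 intronic transcripts reached the mean. Of these, 5 were called higher in GLY (2.70%, where 3.5% of all 32646 tested transcripts were) and 3 lower (1.62%, where 1.4% were), shares near those of all transcripts. The GLY values lay wholly above the CK values in 33 of the 185 (17.8%, against 22.3% of all tested transcripts) and wholly below in 14 (7.57%, against 8.2%). These shares were not matched for level, and 128 of the 185 had a mean under 1 FPKM. They do not decide whether intronic transcripts change as often as others of their level. The median log2 fold change was 0.10 for the 185 and 0.18 for all tested transcripts. With median-of-ratios scaling the median of all transcripts was -0.01, 4 intronic transcripts were called higher and 4 lower, and 51.8% of all calls were higher in GLY in place of 71.4%.

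MSTRG.8218.1 had the highest log2 fold change on the scale of FPKM + 1, an order that does not hold with a pseudocount of 0.1, where MSTRG.359.1 (3.56), MSTRG.23063.1 (3.05) and MSTRG.13252.1 (2.97) lay above it (2.92). MSTRG.8218.1 is a single-exon transcript of 932 bases on chromosome 2 from 345039 to 345970, minus strand, inside LOC_Os02g01590, a gene annotated as a glycosyl hydrolase that runs on the opposite strand from 343057 to 347196. Positions are those of the deposited table, on the Nipponbare genome, which the study's methods name as IRGSP build 5.0. MSTRG.8218.1 had 5.68, 4.77 and 5.17 FPKM in GLY and 0.236, 1.01 and 0.824 FPKM in CK, from 123 to 154 read equivalents per GLY library and 5 to 23.7 per CK library. Every GLY value was above every CK value, and the log2 fold change was 1.90 ± 0.23 (standard error, limma adjusted p = 0.012). Its host had 523, 489 and 650 FPKM in GLY and 141, 107 and 146 FPKM in CK, a log2 fold change of 2.07 (limma, adjusted p = 0.00231), and was the only host of a called intronic transcript that was itself called. The intronic transcript had 0.861% of the level of this host.

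MSTRG.13252.1 was the longest intronic transcript, with 9484 bases in 2 exons on chromosome 3 from 20732006 to 20741601. It lies on the strand of LOC_Os03g37411, a MATE efflux family gene. The MATE family comprises transporters that export organic compounds in exchange for cations. The FPKM of MSTRG.13252.1 was 3.89, 3.67 and 4.43 in GLY and 0.585, 0.301 and 0.414 in CK, resting on 980 to 1077 read equivalents per GLY library and 71.9 to 126 per CK library. The log2 fold change was 1.80 ± 0.17 (standard error, limma adjusted p = 0.0059). The annotated transcripts of the host had 4.93, 5.98 and 6.89 FPKM in GLY and 3.62, 2.35 and 3.36 FPKM in CK, without overlap but below the call threshold (log2 fold change 0.76, limma adjusted p = 0.0537).

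MSTRG.479.1, a single exon of 5209 bases, lies on chromosome 1 from 4776412 to 4781620 on the strand of the ankyrin repeat gene LOC_Os01g09384. It had 7.15, 7.24 and 6.74 FPKM in GLY and 2.04, 2.53 and 2.24 FPKM in CK (log2 fold change 1.30 ± 0.15 standard error, limma adjusted p = 0.0102). The intronic transcript stood above its host in every library. The host had 0.807, 1.14 and 0.918 FPKM in GLY and 0.205, 0.0263 and 0.324 FPKM in CK, without overlap. Its log2 fold change of 0.73 (limma, adjusted p = 0.0352) did not reach the fold threshold, on a scale where changes of low genes come out too small.

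The other calls higher in GLY rested on few reads. MSTRG.359.1, 438 bases on chromosome 1 inside the G-patch domain gene LOC_Os01g07540, had 1.39, 1.81 and 1.42 FPKM in GLY. In CK it was listed at 0 in CK1 and CK3 and at 0.165 FPKM in CK2, which is 1.81 read equivalents, and the log2 fold change was 1.27 (limma, adjusted p = 0.0216). The host had 1.63, 1.93 and 2.28 FPKM in GLY and 2.12, 1.30 and 1.88 FPKM in CK, with overlap. G-patch proteins are known as partners of RNA helicases. MSTRG.23063.1, 209 bases on chromosome 7 inside the plastocyanin-like gene LOC_Os07g38290, had 2.36, 1.53 and 1.12 FPKM in GLY from 5.96 to 14.4 read equivalents. In CK it had 0.19 and 0.195 FPKM in CK2 and CK3, 1 read equivalent each, and was listed at 0 in CK1. The log2 fold change was 1.22 (limma, adjusted p = 0.0418). Both lie on the strand of their hosts.

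Among the calls lower in GLY, MSTRG.16784.1 had the highest level. It is a single exon of 221 bases on chromosome 4 from 32336708 to 32336928, on the strand of LOC_Os04g54310, annotated as an expressed protein. It had 51.6, 29.3 and 47.4 FPKM in GLY and 79.0, 106 and 105 FPKM in CK (log2 fold change -1.18 ± 0.25 standard error, limma adjusted p = 0.0497). The annotated transcripts of the host had 0.609 to 0.648 FPKM in GLY and 0.563 to 0.802 FPKM in CK, so the intronic transcript stood far above their sum in every library. The host did not pass the test (log2 fold change -0.04, limma adjusted p = 0.849).

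MSTRG.26937.2 was listed at 0 in all GLY libraries and had 0.794, 1.45 and 1.57 FPKM in CK, from 11.5, 23.4 and 24.7 read equivalents. It measures 641 bases and lies in the intron of LOC_Os09g37590, an F-box and DUF domain gene. F-box proteins select substrates for ubiquitin ligases. The fitted log2 fold change of MSTRG.26937.2, -1.17 (limma, adjusted p = 0.0386), depends on the pseudocount and is no bound. This transcript reached the mean for the test through CK alone. The host had 0.452 to 0.58 FPKM in GLY and 0.0975 to 0.284 FPKM in CK, higher in every GLY library, but its mean was too low for the test. MSTRG.22858.6, 372 bases in 2 exons, lies on chromosome 7 in LOC_Os07g33860, which encodes the 60S ribosomal protein L44. It had 1.67, 1.63 and 2.16 FPKM in GLY and 4.75, 5.16 and 5.23 FPKM in CK (log2 fold change -1.10 ± 0.16 standard error, limma adjusted p = 0.019). The annotated transcripts of the host were listed at 0 in CK1, with 6.78 and 9.67 FPKM in CK2 and CK3 and 0.115 to 0.375 FPKM in GLY.

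With each library left out in turn, the calls of MSTRG.13252.1 and MSTRG.479.1 held in all 6 fits, and the call of MSTRG.8218.1 held in 5 and was lost without GLY1 (log2 fold change 1.85, limma adjusted p = 0.051). The call of MSTRG.22858.6 held only without GLY3. Those of MSTRG.359.1, MSTRG.23063.1 and MSTRG.16784.1 were lost whichever library was left out, and that of MSTRG.26937.2 in the 4 fits where it still reached the mean, with limma adjusted p between 0.0523 and 0.141. With the library-size covariate, whose correlation with treatment was 0.982, none of the 8 was called, and the log2 fold changes of MSTRG.16784.1 and MSTRG.26937.2 turned to 1.40 and 0.24.

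**Figure D3:**
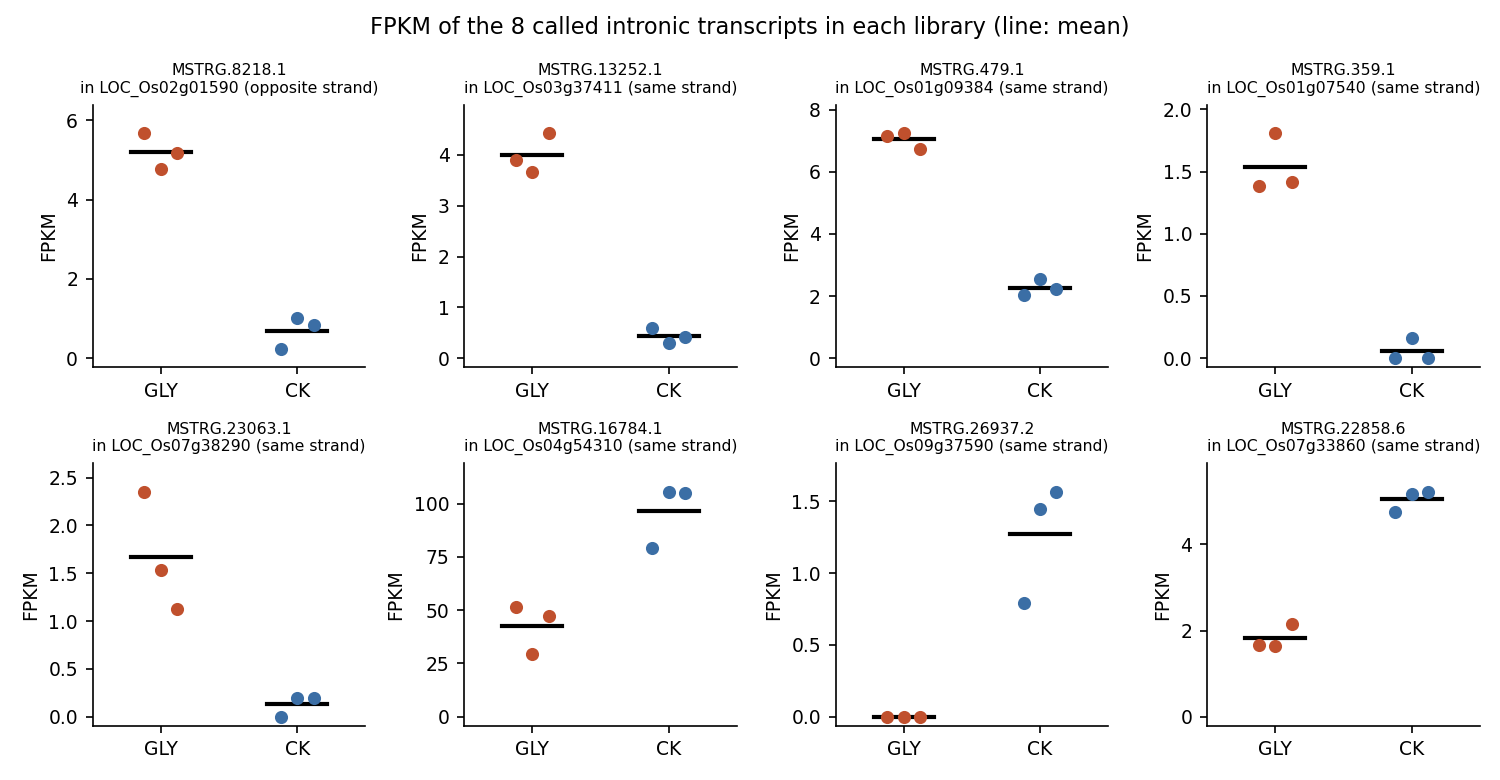
FPKM (vertical axis) of the 8 called intronic transcripts in each GLY and CK library, with a line at the group mean. The first 5 panels are higher in GLY and the last 3 lower, and MSTRG.26937.2 is listed at 0 in all GLY libraries.

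The 8 intronic transcripts of highest mean level were MSTRG.26680.3, MSTRG.16784.1, MSTRG.9700.1, MSTRG.12139.1, MSTRG.17455.4, MSTRG.1661.1, MSTRG.9355.1 and MSTRG.4553.1, in falling order. Ribosomal proteins are the annotation of 3 of their hosts, and 1 is a ubiquitin fusion protein, a kind of gene that in eukaryotes often joins ubiquitin to a ribosomal protein. MSTRG.26680.3, 330 bases on chromosome 9 in LOC_Os09g32532 (60S ribosomal protein L32), had 80.9 and 70.9 FPKM in GLY1 and GLY3, was listed at 0 in GLY2, and had 105, 102 and 92.5 FPKM in CK. The value of 0 beside 779 and 594 read equivalents in GLY1 and GLY3 sets GLY2 apart for this transcript. The host had 8.89 FPKM in GLY2, against 6.26 and 6.29 FPKM in GLY1 and GLY3 and 4.32 to 10.7 FPKM in CK. The log2 fold change of MSTRG.26680.3 was -2.48 (limma, standard error 1.69, adjusted p = 0.44) and was -0.39 without GLY2. Without MSTRG.26680.3 the summed FPKM of all intronic transcripts was 595 to 641 in GLY and 692 to 763 in CK.

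MSTRG.9700.1, 422 bases on chromosome 2 in the ribosomal protein gene LOC_Os02g33140, had 48.3, 51.3 and 44.4 FPKM in GLY and 74.9, 78.6 and 68.4 FPKM in CK. Every GLY value lay below every CK value, and the log2 fold change of -0.61 (limma, adjusted p = 0.0418) did not reach the fold threshold. The host did not pass the test, with 8.31, 16.1 and 10.8 FPKM in GLY and 7.27, 7.18 and 9.83 FPKM in CK. MSTRG.4553.1, 360 bases on the strand opposite to the ribosomal protein gene LOC_Os10g32920, had 3.82, 2.47 and 2.18 FPKM in GLY and 5.61, 6.07 and 8.06 FPKM in CK (log2 fold change -0.997, limma adjusted p = 0.0629). Its host had 24.1, 17.3 and 23.5 FPKM in GLY and 12.6, 14.8 and 22.1 FPKM in CK.

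MSTRG.1661.1, 646 bases in the S-locus lectin kinase gene LOC_Os01g40499, had 8.03, 7.40 and 5.80 FPKM in GLY and 11.5, 11.6 and 10.9 FPKM in CK, without overlap (log2 fold change -0.62, limma adjusted p = 0.0879). MSTRG.17455.4, 1361 bases in LOC_Os05g06014, had 17.1, 9.97 and 12.4 FPKM in GLY and 18.2, 17.6 and 18.4 FPKM in CK. MSTRG.9355.1, with 2 exons opposite to the rhomboid homologue gene LOC_Os02g22100, had 6.32, 3.35 and 6.11 FPKM in GLY and 8.75, 8.20 and 7.04 FPKM in CK. Both lay lower in every GLY library, and neither passed the test. MSTRG.12139.1, 336 bases opposite to the ubiquitin fusion gene LOC_Os03g13170, had 25.5, 41.1 and 36.3 FPKM in GLY and 23.0, 29.5 and 27.8 FPKM in CK, with overlap, and was the only one of the 8 with a positive log2 fold change (0.33, limma adjusted p = 0.42).

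**Figure D4:**
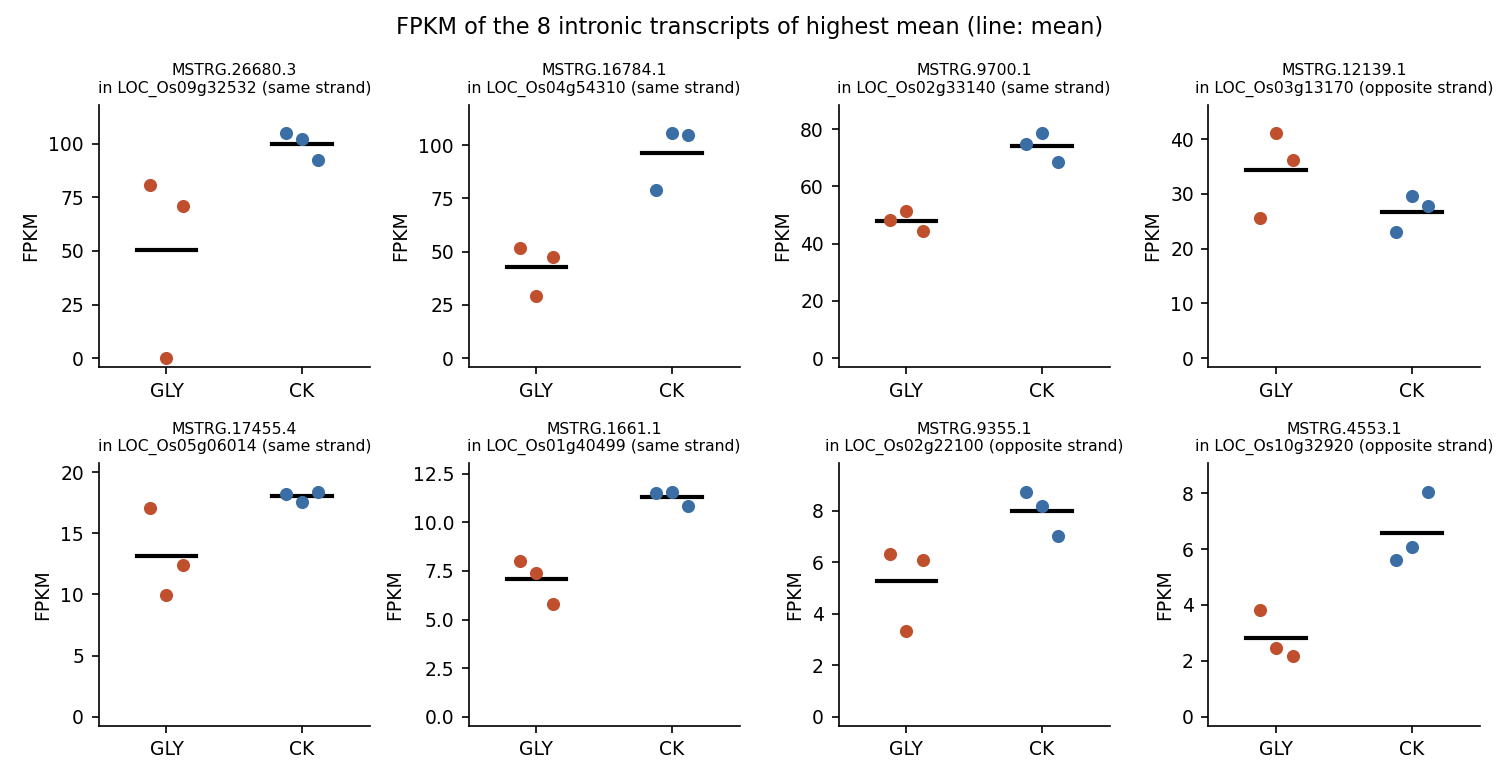
FPKM (vertical axis) of the 8 intronic transcripts with the highest mean in each GLY and CK library, with a line at the group mean. MSTRG.26680.3 is listed at 0 in GLY2 and between 70.9 and 105 FPKM elsewhere, and 6 of the other 7 are lower in every GLY library. Of all tested transcripts, 8.2% lay wholly below in GLY. Among these 6, only MSTRG.16784.1 was called.

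Presence in 1 group alone was more frequent for single libraries than for whole groups. Of the 1277, 284 were detected in GLY libraries alone and 392 in CK libraries alone, but 227 of these 284 and 303 of these 392 rested on 1 library. The share of all transcripts detected in 1 group alone was not computed, so these 2 counts are not read as an effect of treatment. The members found in 1 library alone numbered 80, 80 and 67 in GLY1, GLY2 and GLY3 and 124, 97 and 82 in CK1, CK2 and CK3. All 3 GLY libraries and no CK library held 10 members (0.783%, where 1.35% of all transcripts showed that pattern), and all 3 CK libraries and no GLY library held 11 (0.861%, where 0.693% did). Of these 21, only MSTRG.26937.2 reached the mean for the test, and it was called. It reached that mean through CK alone (1.27 FPKM there). With GLY at 0, passing the filter nearly fixed a fold change of the size required, so the call adds little to the pattern. The other 20 were not tested.

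Among the other 20, 6 are described for their read support or their host, a choice made after their values were seen. MSTRG.22130.1, 3890 bases on chromosome 7 in LOC_Os07g09460, was listed at 0 in all GLY libraries and had 0.616, 0.356 and 0.834 FPKM in CK, from 54.3, 34.8 and 79.7 read equivalents. Its host had 0.583, 1.30 and 0.939 FPKM in GLY and 1.24, 0.552 and 0.732 FPKM in CK, with overlap. MSTRG.25698.1, 868 bases opposite to the Bet3-domain gene LOC_Os09g06970, had 0.54, 1.11 and 0.485 FPKM in GLY, from 13.7, 27.0 and 10.7 read equivalents, and was listed at 0 in CK. Bet3 belongs to a complex that tethers transport vesicles.

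MSTRG.16451.1 and MSTRG.16452.1 both lie in LOC_Os04g49410, an expansin gene, whose products loosen plant cell walls. Each was listed at 0 in all GLY libraries, with 0.136, 0.369 and 1.23 FPKM for MSTRG.16451.1 and 1.06, 0.636 and 0.27 FPKM for MSTRG.16452.1 in CK. These rested on only 1, 3 and 9.77 read equivalents for MSTRG.16451.1 and 6, 4 and 1.66 for MSTRG.16452.1. The host stood higher in GLY, with 1.55, 1.70 and 1.41 FPKM against 0.499, 0.618 and 0.404 FPKM in CK (log2 fold change 0.76, limma adjusted p = 0.0185). MSTRG.26317.1, in the glutamate receptor gene LOC_Os09g26144, was also listed at 0 in GLY and had 1.04, 0.45 and 0.856 FPKM in CK, while its host rose to 3.72, 3.31 and 4.68 FPKM in GLY, against 1.07, 0.501 and 1.30 FPKM in CK (log2 fold change 1.34, limma adjusted p = 0.0159). MSTRG.26317.1 rested on 8, 3.84 and 7.13 read equivalents in CK. MSTRG.9561.1, 206 bases in LOC_Os02g29774, had 0.587, 1.20 and 1.11 FPKM in GLY from at most 6.96 read equivalents.

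Few host genes were called as changed. Of the 1081 hosts, 924 reached a mean of 0.5 FPKM, and 26 were called higher in GLY (2.81%, where 4.78% of all 14980 tested annotated genes were) and 9 lower (0.974%, where 1.84% were). The median log2 fold change was 0.18 for the 924 hosts and 0.17 for all tested genes. With median-of-ratios scaling, 13 hosts were called higher and 16 lower. The 35 called hosts held 44 intronic transcripts, of which 16 were detected in 1 library, 4 in all 6 libraries, and 11 reached the mean for the test. MSTRG.8218.1 was the only one of the 44 to be called.

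The called host with the largest rise was LOC_Os01g38359, an FKBP-type peptidyl-prolyl isomerase gene, with 7.09, 8.55 and 10.4 FPKM in GLY and 0.732, 0.449 and 0.739 FPKM in CK (log2 fold change 2.55, limma adjusted p = 0.00149). Enzymes of this type speed up the folding of proteins at proline. Its intronic transcript MSTRG.1583.1, 2702 bases in 4 exons on the opposite strand, had 1.92, 1.93 and 1.45 FPKM in GLY and 0.73, 0.134 and 0.426 FPKM in CK, without overlap but short of the threshold (log2 fold change 0.97, limma adjusted p = 0.0651). MSTRG.12642.1, opposite to the CAMK kinase gene LOC_Os03g20380, had 1.31, 1.90 and 1.97 FPKM in GLY and 0.304, 0.702 and 0.916 FPKM in CK (limma adjusted p = 0.124), where the host had 36.4, 43.1 and 33.6 FPKM in GLY and 12.1, 8.59 and 8.83 FPKM in CK. In contrast, the ZIM domain gene LOC_Os03g28940, of a family of jasmonate repressors, had 75.8 to 93.9 FPKM in GLY and 16.1 to 17.2 FPKM in CK, and MSTRG.13033.1, opposite to it, was above 0 in CK2 alone, with 1.34 FPKM. MSTRG.23282.1, in the zinc-finger gene LOC_Os07g42370, was listed at 0 in GLY1 and GLY3 with the host at 234 and 188 FPKM there.

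The 9 hosts that fell held 14 intronic transcripts, none of which was detected in all 6 libraries. The auxin efflux carrier gene LOC_Os01g69070 had 16.7 to 18.5 FPKM in GLY and 53.6 to 58.7 FPKM in CK (log2 fold change -1.66, limma adjusted p = 0.00103), and held 2 intronic transcripts on the opposite strand. MSTRG.3451.1 was listed at 0 in all GLY libraries and in CK1, with 0.356 and 1.10 FPKM in CK2 and CK3, and MSTRG.3452.1 had 0.141 FPKM in GLY2 and 1.11 FPKM in CK2 and was listed at 0 elsewhere. LOC_Os01g25484, the gene of ferredoxin-nitrite reductase, which reduces nitrite to ammonium in plastids, had 105, 87.9 and 56.0 FPKM in GLY and 207, 193 and 205 FPKM in CK. MSTRG.1201.1 in its intron was above 0 in CK3 alone, from 7.25 read equivalents. LOC_Os06g28194, annotated as an expressed protein, had 12.9, 12.4 and 10.4 FPKM in GLY and 27.7, 24.3 and 24.1 FPKM in CK (log2 fold change -1.03, limma adjusted p = 0.00773) and held 5 members. The best detected of these, MSTRG.20579.1, had 0.499, 0.895 and 0.604 FPKM in GLY and 0.916 and 1.11 FPKM in CK1 and CK3, and was listed at 0 in CK2. MSTRG.20578.8 was above 0 in CK2 and CK3 alone, from 139 and 132 read equivalents.

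The difference between an intronic transcript and its host was tested directly, as log2(FPKM + 1) of the transcript minus that of the annotated gene. The added 1 FPKM shrinks the change of whichever has the lower level more. The sign of a difference therefore need not be that of the change in the FPKM ratio. Both reached a mean of 0.5 FPKM in 152 cases, and 0 of the 152 were called in either direction by limma, where 0.309% of the 9376 unannotated transcripts with a tested gene were. The lowest adjusted p was 0.297. At an unadjusted p under 0.05 there were 20 (13.2%, against 10.1% of the 9376), 4 with the intronic transcript higher relative to its host in GLY and 16 with it lower, and 0 were called without the moderation of variances. Hosts usually had the higher level, and 620 of the 924 tested hosts had a positive log2 fold change. On this scale the 4 and 16 are therefore not read as a change of the FPKM ratio. For the called transcripts with a tested host, the difference in log2 fold change from the host was -0.17 for MSTRG.8218.1, 1.04 for MSTRG.13252.1, 0.57 for MSTRG.479.1, 1.17 for MSTRG.359.1, -1.14 for MSTRG.16784.1 and 0.71 for MSTRG.22858.6, with limma adjusted p between 0.385 and 0.919. The signs for MSTRG.8218.1 and MSTRG.479.1 depend on the added 1 FPKM. MSTRG.8218.1 had a mean of 0.691 FPKM in CK and 5.21 FPKM in GLY, and its host 131 and 554 FPKM. MSTRG.479.1 had a mean of 2.27 FPKM in CK and 7.04 FPKM in GLY, and its host 0.185 and 0.957 FPKM. The changes of a transcript and of its host come from the same 6 libraries, so their values are set side by side without a correlation.

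**Figure D5:**
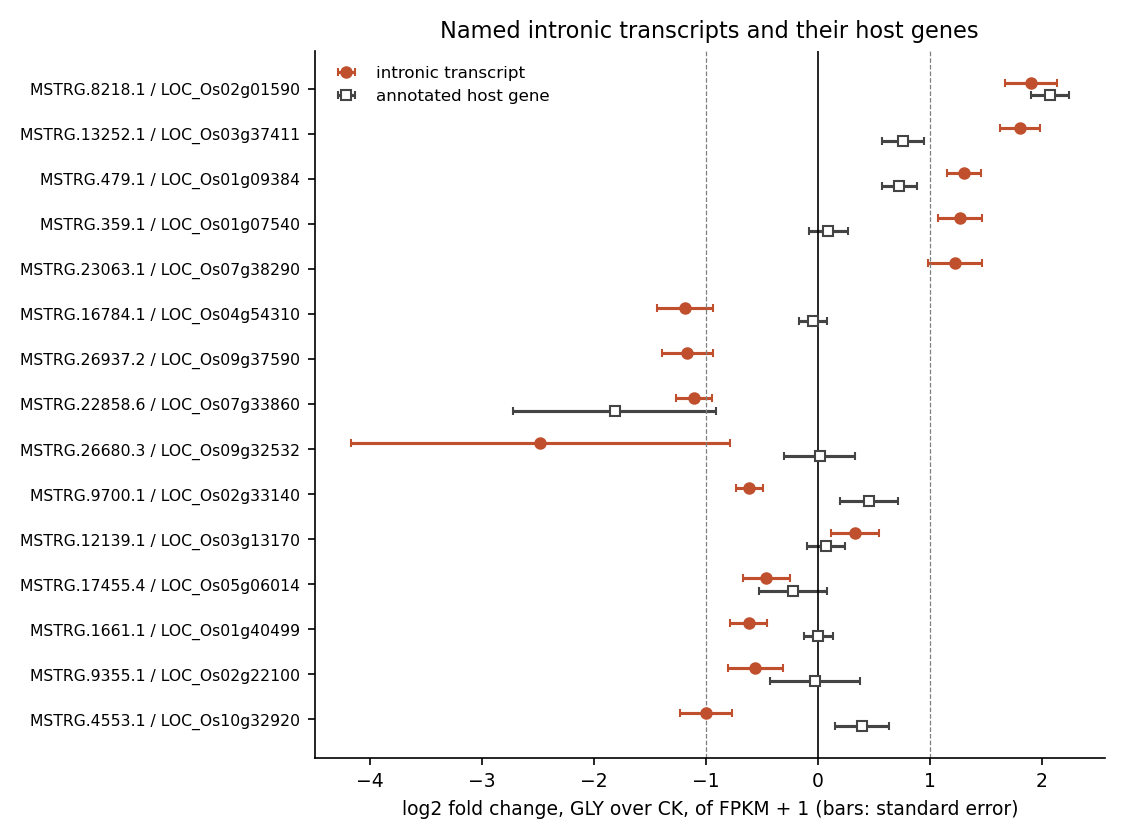
Log2 fold change of FPKM + 1, GLY over CK, with its standard error, for the 15 named intronic transcripts (filled circles) and the summed annotated transcripts of their host genes (open squares). Host squares are missing where the host was too low to test, dashed lines mark the fold threshold, and the hosts past 1 in size are LOC_Os02g01590, with its intronic transcript MSTRG.8218.1, and LOC_Os07g33860, which did not pass the test.

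Grouped by the description of the host, 55 hosts with 62 members were genes of transcription factors or other DNA-binding proteins (5.09% of hosts, against 4.68% of the 22532 annotated genes with at least 2 exons) and 45 hosts with 66 members were kinases (4.16% against 5.27%). Ubiquitin or F-box genes made up 32 hosts (2.96% against 2.37%), transporters 24 (2.22% against 2.02%), disease resistance or NBS-LRR genes 13 (1.20% against 0.715%) and transposon genes 14 (1.30% against 4.74%). Cytochrome P450 genes supplied 6 hosts (0.555% against 0.857%), pentatricopeptide genes 5 (0.463% against 0.537%), helicases 5 (0.463% against 0.426%) and splicing factors 2 (0.185% against 0.160%). Of 32 annotated genes described as photosystem or chlorophyll proteins, 0 held an intronic transcript. These 32 made up 0.142% of the 22532 genes, of which 1081 were hosts, so the 0 is not read as a property of this group. Ribosomal protein genes, a group added after their values were seen, supplied 21 hosts (1.94% against 1.20%) with 23 members. Among tested hosts, 4 of 49 transcription factor genes were called higher and 1 lower, 1 of 40 kinases higher, 2 of 29 ubiquitin or F-box genes higher, 1 of 21 transporters higher and 1 lower, 1 of 9 disease resistance genes higher and 1 of 20 ribosomal protein genes higher. The other groups had 0 called hosts. Over all tested annotated genes, 4.78% were called higher and 1.84% lower, and the difference of a group from these shares was not tested. The median log2 fold change of the hosts was 0.23 for transcription factors, 0.05 for kinases, 0.10 for ubiquitin or F-box genes and 0.30 for transporters, beside 0.19, 0.24, 0.21 and 0.20 for all tested genes of these descriptions with at least 2 exons.

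The 36 intronic transcripts with 2 or more exons were longer and more regularly detected. Their median length was 769 bases, and 25 of the 36 (69.4%) were detected in all 6 libraries, against 48 of the 1241 single-exon members (3.87%). Of the 36, 20 lay opposite to their host, 15 on its strand and 1 had no host in the table. MSTRG.19240.1, with 7 exons the most of any, lies opposite to a retrotransposon gene, LOC_Os05g50420, and had 1.48, 1.43 and 1.33 FPKM in GLY and 3.02, 4.05 and 1.62 FPKM in CK (log2 fold change -0.64, limma adjusted p = 0.232). MSTRG.6597.1, opposite to the WRKY125 gene LOC_Os11g45750, had 2.56, 2.90 and 3.13 FPKM in GLY and 1.57, 1.46 and 1.23 FPKM in CK (log2 fold change 0.68, limma adjusted p = 0.0715). WRKY proteins are plant transcription factors active in stress responses. MSTRG.5856.1 and MSTRG.5856.2, overlapping transcripts opposite to the cycloartenol synthase gene LOC_Os11g18366, both lay higher in every GLY library. The first had 2.46, 3.84 and 3.03 FPKM in GLY and 0.974, 0.781 and 1.85 FPKM in CK, and the annotated transcripts of its host were listed at 0 in 4 libraries. Neither passed the test (limma adjusted p = 0.0932 and 0.147).

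Some hosts held several intronic transcripts. The most, 8, lay opposite to LOC_Os05g33570, which encodes the chloroplast pyruvate, phosphate dikinase, an enzyme that forms phosphoenolpyruvate, the substrate shared by glycolysis and the shikimate pathway. This host had 214, 192 and 177 FPKM in GLY and 212, 216 and 208 FPKM in CK. Among its members, MSTRG.18324.1 (934 bases) was the only one detected in all 6 libraries, with 1.27, 1.71 and 0.864 FPKM in GLY and 1.69, 2.59 and 0.771 FPKM in CK and overlap between the groups. The other 7 were all listed at 0 in GLY3. In LOC_Os03g42380, annotated as an expressed protein and at no more than 0.336 FPKM in any library, 4 same-strand members were found. Among these, MSTRG.13450.1 had 1.003, 2.09 and 2.66 FPKM in GLY and was listed at 0 in CK1, with 0.333 and 0.114 FPKM in CK2 and CK3 (log2 fold change 1.31, limma adjusted p = 0.0541). MSTRG.13449.1 in the same gene had 1.001, 1.18 and 0.923 FPKM in GLY and 0.172, 0.105 and 0.371 FPKM in CK (log2 fold change 0.75, limma adjusted p = 0.088).

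The label of leaf tissue was checked against marker genes. Genes described as chlorophyll A-B binding proteins summed to 25720 to 36686 FPKM in GLY and 42011 to 47660 FPKM in CK, and those of the small chain of ribulose bisphosphate carboxylase to 7629 to 8373 FPKM in GLY and 12330 to 12963 FPKM in CK. Glutelin genes of the grain summed to at most 2.48 FPKM in any library and prolamin genes to at most 0.0672 FPKM. Both leaf marker sums were lower in every GLY library than in any CK library, and their part in the FPKM of other transcripts was not tested.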

How the data were processed

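Ribosomal RNA was removed with Ribo-Zero Gold before paired-end sequencing. The authors mapped reads with Bowtie 2 and TopHat2, assembled them with StringTie and estimated levels with Ballgown, in versions that are not given in the sources used here. FPKM of genes and transcripts was deposited library by library, scaled for length and mapped fragments. Mean coverage per base, also deposited and not scaled for depth, gave aligned bases, and its ratio to FPKM gave mapped depth. The members and lists were chosen with earlier results of these data known.

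Each table was fitted as log2(FPKM + 1) by limma 3.58.1 in R 4.3.3 (lmFit, then eBayes with a mean trend), GLY against CK with 3 libraries each and no covariate, over features with a mean of at least 0.5 FPKM. Adjusted p values are Benjamini-Hochberg values over all features fitted. The host was the annotated gene with a transcript enclosing the member, at the sum of its annotated transcripts. Single values per library were compared by exact two-sided permutation tests. The fit was tested on simulated data, where 200 of 32646 transcripts were changed by a known log2 amount above the threshold. It called 82 of the 200, all with the right sign, and made 6 false calls. Of the 52 with a small spread it called 48. A transcript or host that was not called may therefore still have changed. Named were up to 10 members with the largest called rise and up to 10 with the largest called fall, the 8 of highest mean FPKM, any that the study names (0 were of this class) and up to 5 each way with a called difference from the host (0 were called). Members named beyond that rule were chosen after their values were seen. Alternatives were 0.1 as pseudocount, fits without the filter or at a minimum of 1 FPKM, median-of-ratios scaling, no moderation, the library-size covariate of Ballgown, the replicate number as a block, the unadjusted threshold, host entries of the gene table, other detection minimums and each library left out. Mapped depth limits precision, since most members rest on few reads. No genome of the build was used here, so no sequence is shown.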

Additional observations from a re-analysis of the deposited data

How the results depend on the processing

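Same-numbered libraries did not deviate together (correlations of -0.0056, 0.0022 and -0.0024), so the numbers were not taken to pair them. With the replicate block, 0 intronic transcripts were called higher and 0 lower, 9 hosts were called higher and 3 lower, and 0 of the 15 named intronic transcripts were called, against 8 without the block. The library-size covariate, whose correlation with treatment was 0.982, gave 0 intronic transcripts and 0 hosts in either direction and 0 named ones, and reversed MSTRG.16784.1 (1.40), MSTRG.26937.2 (0.24), MSTRG.26680.3 (8.63), MSTRG.17455.4 (0.70), MSTRG.9355.1 (0.21) and MSTRG.4553.1 (0.62), with limma adjusted p of at least 0.894. The calls higher in GLY numbered 3 at a minimum of 1 FPKM, and without the filter 1 was called lower. Of the named ones, 5 were called in each of these settings, and MSTRG.4553.1 gained a call with median-of-ratios scaling. Hosts called higher numbered 53 with a pseudocount of 0.1, 13 with median-of-ratios scaling and 40 at the unadjusted threshold, and hosts called lower 16 with that scaling and 5 without moderation. At the unadjusted threshold, 4 intronic transcripts were higher and 15 lower relative to the host on the scale of FPKM + 1. A minimum of 0.5 FPKM left 35 members detected in all 6 libraries and 897 in 1 library, and turned the difference in same-strand members detected to 1.67 (exact permutation p = 1, n = 3 each). Aligned bases scaled to library total, added after seeing the data, turned the differences in the sums to 51.9 for all members, 19.9 on the same strand and 29.0 on the opposite strand.

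With each library left out in turn, 2 to 3 intronic transcripts were called higher and 0 to 1 lower, 2 to 4 of the named ones were called, and 19 to 27 hosts were called higher and 7 to 9 lower. The gaps in percent detected lay between -10.6 and -10.1 to single-exon intergenic and between -24.4 and -22.8 to antisense transcripts, with 5 libraries and an exact sign-flip p of 0.0625, the smallest possible. The difference in summed FPKM of opposite-strand members lay between -8.19 and 9.10, positive without GLY3 (9.10) and without CK1 (8.94). Single-library members rest on few reads, so their absence elsewhere was not detectable as a difference at this depth.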
